A study of Mus musculus with 8 samples.

Results

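Mucins, trefoil factors and other secreted markers of mucous epithelium were followed in murine pancreatic ductal adenocarcinoma (PDAC) cells during MEK inhibition. The 10 genes were chosen by symbol, as the rows of Muc1, Muc4, Muc5ac, Muc13, Muc20, Tff1, Tff2, Agr2, Lcn2 and Spp1 among the 34478 genes of the deposited table, and each symbol was found once. RNA came from 4 primary cell lines, numbered #1, #3, #5 and #10, that had been grown out of pancreatic tumors of mice that carry Ptf1a wt/Cre and Trp53 loxP/loxP among their alleles. In these animals Cre under the control of Ptf1a, a gene of the pancreatic lineage, deletes Trp53, and the treated and the control cells carry the same alleles. Treated cells received trametinib, an inhibitor of the kinases MEK1 and MEK2, for 48 h at the concentration that the labels give as the IC50 of each line, and control cells received the solvent DMSO. With 1 library for each line and treatment there were 8 libraries, and a line is an established culture from a tumor and not a repeated culture of the same line. P-values therefore measure the spread between lines. The ages of the animals and the concentrations are not given in the sources used here.

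Mucins are large glycoproteins whose central repeats carry dense O-linked sugar chains. Muc1, Muc4, Muc13 and Muc20 are anchored in the cell membrane, where their extracellular part forms a brush on the apical surface and their cytoplasmic part takes part in signaling, while Muc5ac is secreted and forms the gel of gastric and airway mucus. Trefoil factors are small, disulfide-bonded peptides that are secreted together with mucins, Tff1 and Tff2 mainly in the stomach, and protect and repair the epithelium. Agr2 is a protein disulfide isomerase of the endoplasmic reticulum that helps mucins to fold, Lcn2 (lipocalin 2) binds bacterial iron carriers, and Spp1 (osteopontin) is a secreted ligand of integrins and of Cd44. The normal pancreatic duct makes little Muc5ac or Tff1, and both appear in precursor lesions and in tumors of the gastric-like, classical type.

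Promoter sequences are given here for the genes with an entry whose level passed the test of the trametinib effect, since they show what the sequence around an annotated start of each of these genes holds. They come from RefSeq on GRCm38.p6, hold 250 bases before and 50 bases after the annotated start and read 5′ to 3′ on the strand of the gene. Entries were found for 7 of the 10 genes, and none was found for Muc5ac, Tff1 and Tff2. The Lcn2 entry lies inside the gene as GENCODE places it, from 32384633 to 32388252 on the minus strand. It therefore does not show the bases before that gene. Capitals mark 3 motifs that were searched on both strands, the AP-1 motif TGANTCA, the ETS motif AGGAAG, which reads CTTCCT on the other strand, and the TATA motif TATAAA, which there reads TTTATA, none of which overlapped another in the entries shown. AP-1 and ETS factors are known endpoints of MAPK signaling.
Muc1 (chr3:89228806-89229105, plus strand): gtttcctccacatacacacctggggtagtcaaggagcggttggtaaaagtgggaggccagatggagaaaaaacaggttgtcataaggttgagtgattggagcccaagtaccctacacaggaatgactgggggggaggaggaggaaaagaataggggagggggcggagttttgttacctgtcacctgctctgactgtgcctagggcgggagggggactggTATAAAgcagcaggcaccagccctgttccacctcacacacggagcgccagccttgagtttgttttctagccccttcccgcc
Spp1 (chr5:104434861-104435160, plus strand): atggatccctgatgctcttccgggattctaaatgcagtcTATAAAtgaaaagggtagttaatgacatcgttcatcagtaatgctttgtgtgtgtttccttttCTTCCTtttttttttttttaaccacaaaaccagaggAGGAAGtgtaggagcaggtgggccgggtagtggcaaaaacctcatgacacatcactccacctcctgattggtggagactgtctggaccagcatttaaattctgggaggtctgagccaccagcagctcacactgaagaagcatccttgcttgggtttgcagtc
Muc4 (chr16:32735636-32735935, plus strand): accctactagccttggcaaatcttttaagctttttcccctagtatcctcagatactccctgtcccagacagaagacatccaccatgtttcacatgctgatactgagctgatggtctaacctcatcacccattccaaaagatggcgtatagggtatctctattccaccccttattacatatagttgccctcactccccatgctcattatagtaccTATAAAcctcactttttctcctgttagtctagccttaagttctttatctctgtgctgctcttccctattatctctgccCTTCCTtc
Lcn2 (chr2:32387690-32387989, minus strand): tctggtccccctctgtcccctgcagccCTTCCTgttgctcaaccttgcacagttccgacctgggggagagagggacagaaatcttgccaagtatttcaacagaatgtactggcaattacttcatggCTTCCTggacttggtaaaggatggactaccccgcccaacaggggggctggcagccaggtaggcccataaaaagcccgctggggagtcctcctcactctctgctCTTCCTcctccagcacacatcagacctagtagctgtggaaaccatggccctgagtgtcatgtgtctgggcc

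In these windows the Muc1 entry held 1 TATA motif, 31 bases before the start, and no AP-1 or ETS motif. The Muc4 entry held 1 TATA motif, 36 bases before the start, and 1 ETS motif after it. The Spp1 entry shown, the first of 2, held 2 ETS motifs and 1 TATA motif, while the other, at chr5:104435942-104436241, held 1 ETS motif and no TATA motif. The Lcn2 entry held 3 ETS motifs. The AP-1 motif was in none of these entries of Muc1, Muc4, Spp1 and Lcn2 and was present once in each of the 2 entries of Muc13. Of all 32851 promoter entries of the same length, 7.8% held the AP-1 motif, 35.4% the ETS motif and 13.6% the TATA motif. A match of letters is a description of the sequence only.

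The identity of the cultures was checked with marker lists. Krt8 and Krt18, keratins of simple epithelia, stood at 81134 to 132484 and 45666 to 96354 normalized counts with DMSO. With trametinib they stood at 27587 to 83194 and 17761 to 60668, and Cdh1 lay between 19630 and 28487 over the 8 libraries. The summed level of 8 epithelial markers was 220959 to 347703 with DMSO and 113439 to 221939 with trametinib. Of the 7 tested, 5 passed as lower and 1, Cldn4, as higher, with a median log2 fold change of -0.74. The calls in this paragraph stand beside 27.3% of all genes tested that passed as higher and 25.6% as lower. Epcam, a defining marker of epithelial cells, was however listed at 0 in 6 of the 8 libraries and stood in line #3 at 10.4 (DMSO) and 3.75 (trametinib). Of 12 leukocyte markers in the table, 5 passed the filter on low values, and the summed level of the 12 was 1151 to 2712 with DMSO and 1367 to 3829 with trametinib, most of it Cd14. Ptprc was at 17.2 or lower and Lyz2 at 1.91 or lower in each library, whereas Csf1r, a receptor of macrophages, passed as higher with trametinib. Fibroblast markers summed to 96.8 to 369 with DMSO and 440 to 1260 with trametinib, with Lum listed at 0 throughout. Of the 5 fibroblast markers tested, Col1a1, a collagen chain, passed as higher, at 30.1 to 130 with DMSO and 360 to 1110 with trametinib. Acinar markers summed to 51.9 to 259 and 28.2 to 131, and the 1 tested, Cela1, passed as lower. Endothelial markers summed to 38.1 to 82.9 with DMSO and 75.5 to 1779 with trametinib, where Tek and Vwf passed as higher. The 4 endocrine markers summed to 16.3 or lower in each library. The part of these genes in the results that follow was not tested.

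The sum of the normalized counts ran from 30680091 to 36385719 over the libraries. The depth, estimated from the spacing of low values, was about 29300000 to 45900000 reads per library. A floor of 3 reads, below which a level cannot be shown, lay between 2.33 and 3.72 normalized counts and covers counting error only. The action of trametinib was checked with 10 readouts of MAPK signaling, of which 10 fell in limma at an adjusted p under 0.05. Of all genes tested, 25.6% were lower. Dusp6, a phosphatase of ERK, and Spry4, a feedback inhibitor, had log2 fold changes of -2.51 (limma adjusted p = 0.00012) and -3.61 (limma adjusted p = 0.00021). Changes are given on the log2(normalized count + 1) scale, which understates those of low genes. In bulk libraries, fewer cells with a transcript and less of it per cell cannot be told apart.

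Of the 10 genes, 8 had a mean normalized count of at least 10 and were tested with limma over the 15888 genes that passed this filter. With trametinib, Muc5ac, Tff1, Spp1 and Muc1 fell and Lcn2, Tff2 and Muc4 rose at an adjusted p under 0.05, while Muc13 did not pass. Lcn2 averaged 4.19 with DMSO and 22.8 with trametinib and reached the filter only through the trametinib libraries. With no filter, Lcn2 and Muc4 did not pass (limma adjusted p = 0.055 and 0.051). The 7 that passed had a log2 fold change of 1 sign in all 4 lines, although that of Tff2 in line #5 was only 0.015. Over all genes tested, 53.0% passed in either direction, 27.3% as higher and 25.6% as lower, and 65.6% had 1 sign in all 4 lines. In numbers, 4341 genes were higher and 4075 lower, and with libraries rescaled to equal totals 5315 were higher and 3284 lower. This rescaling moved the median log2 fold change of all genes from 0.07 to 0.20, and quantile normalization moved it to -0.03. The 8 tested genes kept their direction under both and with each library centred on its median. With quantile normalization, however, Muc4, Tff2 and Lcn2 did not pass (limma adjusted p = 0.10, 0.075 and 0.064). Without the cell line as a block, Muc5ac passed and the other 6 did not, with an adjusted p in limma of 0.30 for Muc1, 0.18 for Tff1, 0.12 for Spp1, 0.15 for Muc4, 0.17 for Tff2 and 0.060 for Lcn2. Muc20 and Agr2 stayed below the filter and are described by their values. Mucin genes hold repeats within and between each other, and whether reads were shared between them was not tested.

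**Figure D1:**
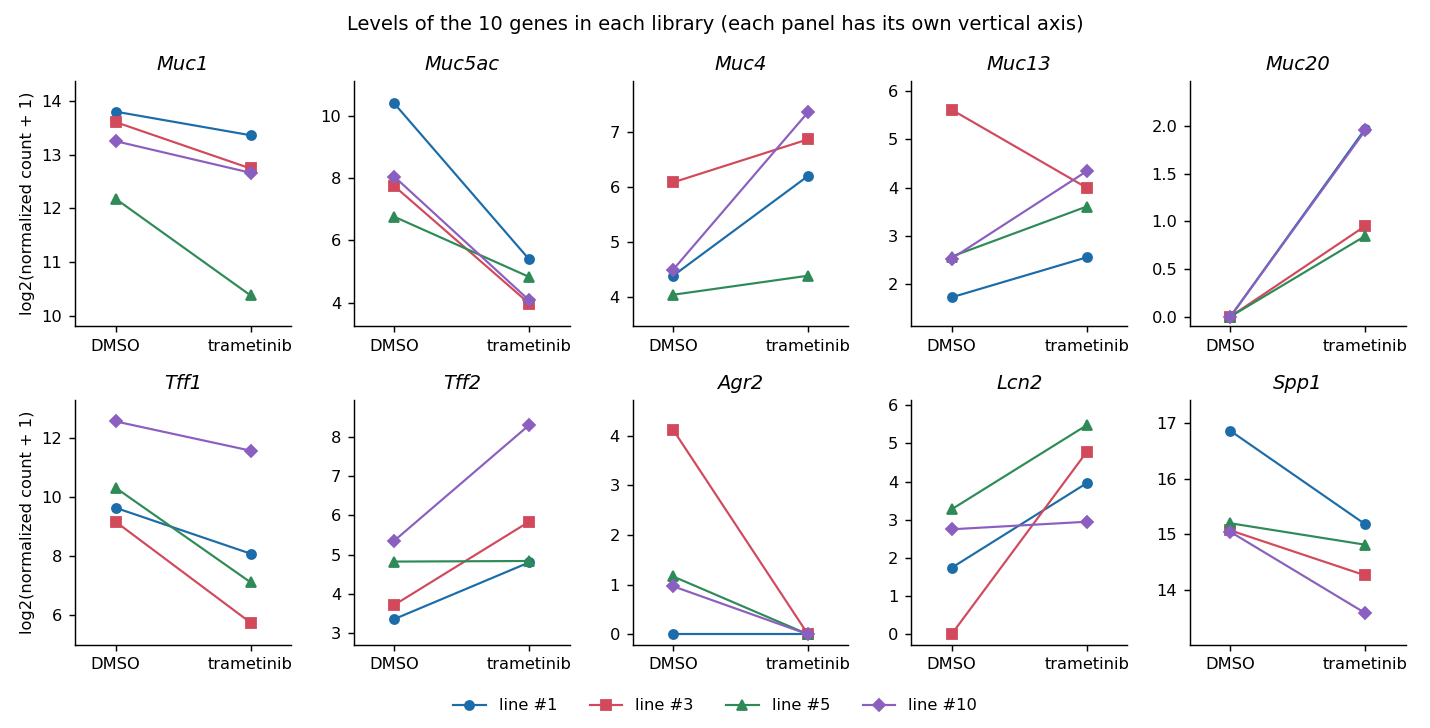
Level of each of the 10 genes as log2(normalized count + 1) with DMSO and with trametinib. Each line and symbol is 1 cell line with 1 library per treatment, and every panel has its own vertical axis. Muc1, Muc5ac, Tff1 and Spp1 go down in each of the 4 lines, Muc4 and Lcn2 go up in each, Tff2 goes up in lines #1, #3 and #10 and is nearly level in line #5, and Muc13 goes down only in line #3.

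Muc5ac, the secreted mucin among the 10 genes, lies on chromosome 7 from 141788972 to 141819231 of GRCm38 (the mm10 build, GENCODE M21, plus strand, protein-coding) and had the largest change of the 8 genes tested. With DMSO its normalized counts were 1344 in line #1, 213 in line #3, 107 in line #5 and 263 in line #10. With trametinib they were 40.8, 14.7, 27.3 and 15.8 in the same order. The groups did not overlap, and the lowest DMSO library, that of line #5, stood above the highest trametinib library, that of line #1. Muc5ac was the only one of the 8 tested genes without overlap, a property of 31.3% of all genes tested. Within a line the level fell 32.9-fold in line #1, 14.5-fold in line #3, 3.92-fold in line #5 and 16.6-fold in line #10. The log2 fold change was -3.67 (SE 0.46, 95% interval -4.78 to -2.56, limma adjusted p = 0.0011), and 35 of the 15888 genes had a lower one. The call held under 14 of 14 alternative settings. With trametinib the lines were closer to each other, with a 2.78-fold distance from the lowest to the highest against 12.5-fold with DMSO. This rested largely on line #1, without which the distances were 1.86-fold and 2.45-fold.

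Muc1, on chromosome 3 from 89229057 to 89233381 on the plus strand, had the highest level of the 5 mucins among the 10 genes in every library. With DMSO its normalized counts were 14353, 12538, 4642 and 9791 in lines #1, #3, #5 and #10. With trametinib they were 10571, 6874, 1327 and 6503. The order of the lines was the same in both groups, with line #1 highest and line #5 lowest, and the groups overlapped. The log2 fold change was -0.93 (SE 0.22, 95% interval -1.44 to -0.41, limma adjusted p = 0.011). It ran from -0.44 in line #1 to -1.81 in line #5, so that line #5, which had the least Muc1 to begin with, lost 3.50-fold and line #1 1.36-fold. Muc1 made up between 91.3% and 98.9% of the summed normalized counts of these 5 mucins in every library. Muc5ac fell by more than Muc1 in each line, by 2.75 ± 1.88 (SD, n = 4 lines) on the log2 scale, although the difference in line #5 was only 0.13 (two-sided exact permutation of signs, p = 0.125, the lowest value possible with 4 lines).

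Muc4, the other large membrane mucin, binds Erbb2 and lies on chromosome 16 from 32735886 to 32782391 on the plus strand. It went the other way. With DMSO its normalized counts were 19.99 in line #1, 66.7 in line #3, 15.5 in line #5 and 21.6 in line #10. With trametinib they were 72.3, 115, 20.01 and 162. The level rose 7.49-fold in line #10 and 1.29-fold in line #5, with the other lines between, and the groups overlapped. The log2 fold change was 1.44 (SE 0.43, 95% interval 0.41 to 2.48, limma adjusted p = 0.029). The call was lost without line #1, where the log2 fold change was 1.32 (limma adjusted p = 0.099), and without line #10, where it was 0.98 (limma adjusted p = 0.093). Relative to Muc1, Muc4 moved up by 2.37 ± 0.76 (SD, n = 4 lines) on the log2 scale, and did so in each line (two-sided exact permutation of signs, p = 0.125). Per kilobase of exon it remained a minor transcript, with a mean of 2.63 normalized counts per kb with DMSO and 7.86 with trametinib against 4404 and 2693 for Muc1.

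Muc13, a membrane mucin with epidermal growth factor-like domains, lies on chromosome 16 from 33794037 to 33819934 on the plus strand. Its normalized counts with DMSO were 2.33 in line #1, 47.9 in line #3, 4.97 in line #5 and 4.80 in line #10. With trametinib they were 4.90, 15.0, 11.2 and 19.3. Line #3 stood far above the other lines with DMSO and was the only one in which Muc13 was lower with trametinib, with a log2 fold change of -1.61 against 0.83, 1.03 and 1.80 in lines #1, #5 and #10. The mean log2 fold change was 0.51 (SE 0.60, 95% interval -0.91 to 1.93, limma adjusted p = 0.49) and did not pass. It was 0.08 without line #10 and 0.02 with quantile normalization. The values of lines #1, #5 and #10 with DMSO correspond to only 3 to 5 reads, so that a change within these lines rests on few reads. Muc13 shares 184 exonic bases with the gene model Gm15657 on the other strand.

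Muc20, a membrane mucin known as a partner of the receptor Met, lies on chromosome 16 from 32777419 to 32797435 on the minus strand, and its 3′ end overlaps that of Muc4 by 627 exonic bases. It was listed at 0 in each DMSO library. With trametinib it stood at 2.93, 0.94, 0.80 and 2.88 in lines #1, #3, #5 and #10, about 3, 1, 1 and 3 reads. Lines #1 and #10 lay at the floor of 3 reads of their libraries (2.92 and 2.88) and the others below it, so that Muc20 was at most at the limit of detection. The libraries keep the strand, but whether the quantification used it is not given in the sources used here. Whether a few reads of Muc4 stand under Muc20 was not tested.

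The trefoil factors lie side by side on the minus strand of chromosome 17, Tff2 from 31141049 to 31144282 and Tff1 from 31161395 to 31165277, with 17112 bases between them. Their changes had opposite signs. Tff1 stood at 800 normalized counts in line #1, 577 in line #3, 1281 in line #5 and 6092 in line #10 with DMSO. With trametinib it was at 272, 53.0, 138 and 3065. Line #10 held several times more Tff1 than any other line in both groups, and the groups overlapped through this line. The log2 fold change was -2.29 (SE 0.41, 95% interval -3.28 to -1.31, limma adjusted p = 0.0039). The fall was 10.9-fold in line #3, 9.27-fold in line #5, 2.94-fold in line #1 and 1.99-fold in line #10, the line with the highest level. Gm15318, a gene model on the other strand that shares 221 exonic bases with Tff1, stood at 4.29 or lower in each library.

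Tff2 was low with DMSO, at 9.30, 12.2, 27.4 and 40.1 normalized counts in lines #1, #3, #5 and #10. With trametinib it was at 27.0, 56.5, 27.7 and 315. It was higher in lines #1, #3 and #10 and nearly level in line #5, where the log2 fold change was 0.015 against 2.94 in line #10, and the groups overlapped. The mean log2 fold change was 1.63 (SE 0.48, 95% interval 0.49 to 2.77, limma adjusted p = 0.026). With 1 line fewer the call was lost in 3 cases, at a log2 fold change of 1.69 without line #1 (limma adjusted p = 0.067), 1.47 without line #3 (limma adjusted p = 0.065) and 1.19 without line #10 (limma adjusted p = 0.10).

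The ratio of Tff1 to Tff2 gives the shift between the neighbors. With DMSO the normalized count of Tff1 was 86.03 times that of Tff2 in line #1, 47.2 times in line #3, 46.8 times in line #5 and 152 times in line #10. With trametinib the ratios were 10.1, 0.94, 4.99 and 9.73. The groups did not overlap in this ratio. In line #3 with trametinib the counts were close to each other, at about 56 reads for Tff1 and 60 for Tff2, so that no order of the pair is given there. On the log2 scale Tff1 changed by -3.92 ± 1.15 (SD, n = 4 lines) relative to Tff2 (two-sided exact permutation of signs, p = 0.125). Tff3, the intestinal trefoil factor that lies 11402 bases from Tff2, stood in line #10 at 35.3 (DMSO) and 109 (trametinib) and between 3.74 and 8.20 in all other libraries. It did not pass, with a log2 fold change of 0.39 (limma adjusted p = 0.52). Line #10 thus had the highest level of all 3 trefoil genes in both groups.

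Agr2, on chromosome 12 from 35992907 to 36004087 on the plus strand, was seen in a single library above the floor. With DMSO it was listed at 0 in line #1 and stood at 16.4 in line #3, 1.24 in line #5 and 0.96 in line #10, about 16, 1 and 1 reads. All 4 trametinib libraries listed it at 0. Agr2 did not reach the filter and was not tested. Line #3 was also the line with the highest DMSO level of Muc13 and Muc4, and of the mucous cell genes Ern2 (558 against 7.72 to 110 in the others), Clca1 (164 against 17.6 to 20.8), Fut2 (223 against 14.5 to 23.3) and Muc3a (104 against 0.78 or lower). Atoh1, a master regulator of intestinal secretory cells, stood at 19.8 in this library and was listed at 0 in the other 7. Other genes of the same lists were lowest in line #3 with DMSO, among them Muc2 (8.66 against 11.3 to 20.9), Clca3a1 (144 against 158 to 1014), Foxa3 (69.6 against 144 to 160) and Hnf4a (9623 against 10607 to 13106), and Fcgbp was highest in line #10. These genes were chosen with their values in view, and 1 library per line and treatment allows no test between lines.

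**Figure D2:**
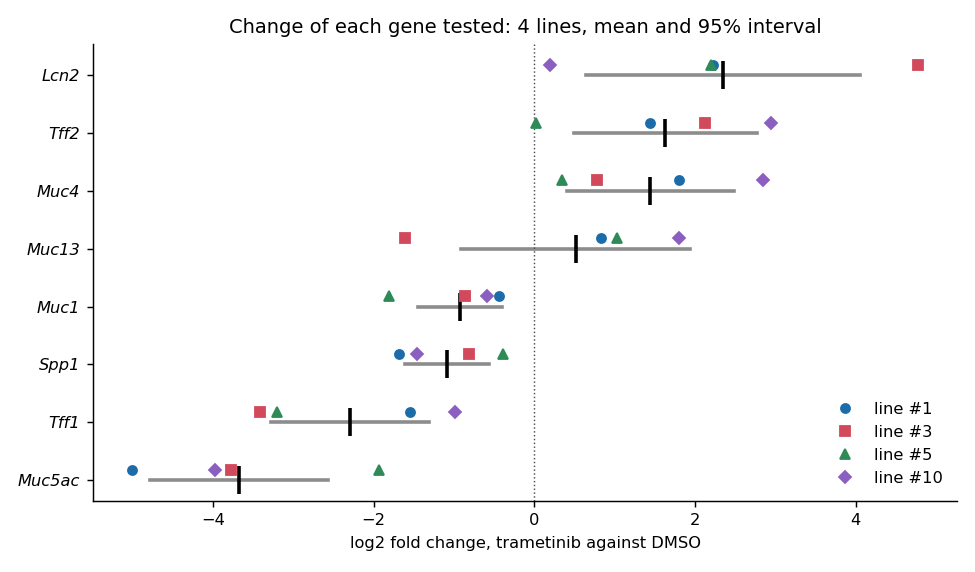
Log2 fold change of the 8 tested genes, trametinib against DMSO. Symbols are the 4 cell lines, the black bar is the mean of the 4 and the gray line its 95% interval from limma. Muc5ac is lowest at -3.67 and Lcn2 highest at 2.35, and the interval of Muc13 spans 0.

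Lcn2, on chromosome 2 from 32384633 to 32388252 on the minus strand, was close to the floor with DMSO. Its normalized counts were 2.34, 8.68 and 5.72 in lines #1, #5 and #10 with DMSO, and line #3 listed it at 0. With trametinib they were 14.5 in line #1, 26.4 in line #3, 43.6 in line #5 and 6.71 in line #10. The largest rise was that of line #3, which started from 0, and the smallest that of line #10, so that the groups overlapped. Its mean was 4.19 with DMSO and 22.8 with trametinib, so that Lcn2 passed the filter at 10 only through the trametinib libraries. With no filter it lost the call (limma adjusted p = 0.055). The log2 fold change was 2.35 (SE 0.72, 95% interval 0.64 to 4.06, limma adjusted p = 0.031) and depended on the pseudocount. With a pseudocount of 0.1 it was 3.29 (limma adjusted p = 0.062), which did not pass, and with one of 5 it was 1.505 (limma adjusted p = 0.022). At the pseudocount of 1 it was 1.54 with an adjusted p of 0.060 without line #3, 2.39 with an adjusted p of 0.083 without line #1 and 3.07 with an adjusted p of 0.015 without line #10. Relative to its own DMSO library, Lcn2 was 5.03-fold higher in line #5 and 1.17-fold in line #10, where it rested on about 6 and 7 reads, while line #1 had about 3 reads with DMSO and 15 with trametinib.

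Spp1, on chromosome 5 from 104435118 to 104441050 on the plus strand, was the most abundant of the 10 genes. With DMSO its normalized counts were 118850, 34313, 37507 and 33686 in lines #1, #3, #5 and #10. With trametinib they were 36995, 19568, 28695 and 12213. Line #1 stood far above the other lines with DMSO and came closer to them with trametinib, while the order of the lines stayed the same, and the groups overlapped. The log2 fold change was -1.09 (SE 0.22, 95% interval -1.61 to -0.57, limma adjusted p = 0.0061). It ran from -1.68 in line #1 to -0.39 in line #5. Spp1 is also made by macrophages. The 12 leukocyte markers in the table, whose sums are given above, included Csf1r, which passed as higher with trametinib, and Ptprc and Lyz2, which stood at 17.2 and 1.91 or lower, and their part in the level of Spp1 was not tested. An unnamed gene model on the same strand, Gm42793, shares 309 exonic bases with Spp1 and stood at 61.5 to 417 normalized counts.

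Levels of different genes were compared per kilobase of exon. Spp1 had a mean of 34035 normalized counts per kb with DMSO, rank 38 of 31829 genes, and 14786 with trametinib, rank 55. The DMSO mean rested largely on line #1, at 72118 per kb against 20821, 22759 and 20441 in lines #3, #5 and #10. Muc1 followed with means of 4404 and 2693 per kb, and Tff1 with 3112 and 1255 per kb. Line #10 had the reverse order, with Tff1 at 8666 and Muc1 at 4174 per kb with DMSO and at 4360 and 2772 with trametinib, and in the other lines Muc1 was above Tff1 in both groups. Muc5ac went from 44.8 to 2.29 per kb and Tff2 from 38.1 to 182 per kb, so that the order of these 2 means was exchanged. The trametinib mean of Tff2 rested largely on line #10, at 539 per kb against 46.2, 96.7 and 47.4 in lines #1, #3 and #5. Within the lines, however, Muc5ac was above Tff2 with DMSO in line #1 alone, with 125 against 15.9 per kb. It was below Tff2 with DMSO in line #3 (19.8 against 20.9 per kb), line #5 (9.97 against 46.9) and line #10 (24.5 against 68.6), and with trametinib in all 4 lines. Muc13, Agr2, Muc4, Lcn2 and Muc20 had means under 10 per kb in both groups. Summed over the 10 genes, the normalized counts made up 0.12% to 0.38% of a DMSO library and 0.070% to 0.15% of a trametinib library, and Spp1 was the largest part in every one.

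**Figure D3:**
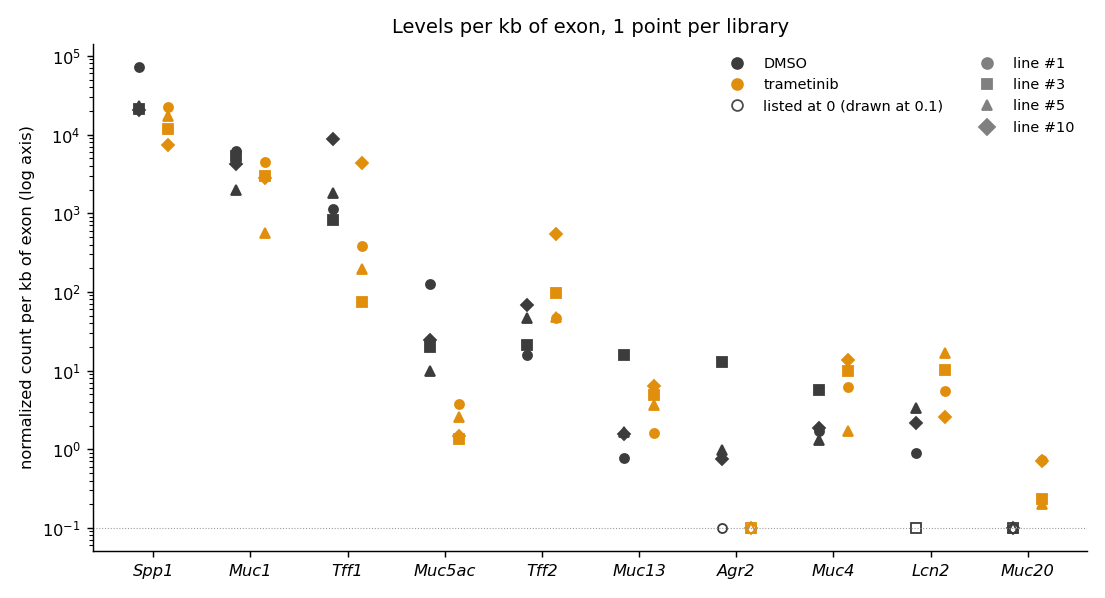
Normalized count per kilobase of exon for each of the 10 genes, on a logarithmic axis. Each symbol is 1 library, dark for DMSO and orange for trametinib, with the symbol shape giving the line, and open symbols are libraries in which the gene is listed at 0, drawn at 0.1. Spp1, Muc1 and Tff1 have the highest means in both groups, and Muc5ac lies above Tff2 only in line #1 with DMSO.

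The surroundings of these genes were described with lists of related genes. Of a list of 14 genes, Tff3 and other mucins, 13 were in the table and 5 passed the filter, with 0 higher and 0 lower in limma, and 0 at an unadjusted p under 0.05. The highest of them was Cd164, a sialomucin of endosomes and the cell surface, at 5428 to 7492 normalized counts with DMSO and 6499 to 8846 with trametinib and with a log2 fold change of 0.09 (limma adjusted p = 0.52). Per kilobase of exon it lay above Muc1 in line #5 with trametinib, at 1461 against 566, and below it in the other 7 libraries. Muc2, the mucin of intestinal goblet cells, stood at 8.66 to 20.9 with DMSO and 8.80 to 65.2 with trametinib, and Muc5b between 13.7 and 63.6 over both groups. Muc6, the mucin that gastric glands secrete with Tff2, was at 22.2 or lower in each library and was not tested. The median log2 fold change of the 5 tested genes was 0.39, against 0.07 over all genes tested, of which 53.0% passed in either direction.

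Among the enzymes that build O-linked sugar chains on mucins, 26 of 33 were tested, and 7 were higher and 10 lower, with a median log2 fold change of -0.18. The largest fall was that of Gcnt3, the mucin-type core 2 and core 4 branching enzyme, which averaged 5405 ± 2048 normalized counts (SD, n = 4 lines) with DMSO. With trametinib the average was 311 ± 147 (SD, n = 4 lines). Its log2 fold change was -4.13 (SE 0.12, limma adjusted p = 3.4e-05). Chst4, a sulfotransferase, and Fut4, a fucosyltransferase, fell by 1.70 (limma adjusted p = 0.013) and 1.05 (limma adjusted p = 0.0050) on the log2 scale. The sialyltransferases St3gal4 and St3gal2 rose by 1.27 (limma adjusted p = 0.0072) and 0.74 (limma adjusted p = 0.0017), and Galnt11, which adds the first sugar, by 1.11 (limma adjusted p = 0.0012). With no block on the cell line, 4 genes of this list were higher and 7 lower. Over all genes tested, 27.3% were higher and 25.6% lower.

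Of 27 regulators and granule proteins of mucous secretory cells, 21 were tested, and 8 were higher and 5 lower, with a median log2 fold change of 0.34. Ern2, the stress sensor of mucous cells that acts with Agr2, fell by 3.20 (limma adjusted p = 0.0036) on the log2 scale, the vesicle sensor Syt7 by 1.66 (limma adjusted p = 0.00070) and the goblet cell product Clca1 by 1.66 (limma adjusted p = 0.013). Creb3l1, Creb3l4 and Xbp1, transcription factors of the secretory pathway, rose by 2.12 (limma adjusted p = 0.00075), 1.42 (limma adjusted p = 0.0030) and 1.04 (limma adjusted p = 0.00044). Spdef, a regulator of goblet cell maturation, was at 4.27 or lower in each library. Without the cell line as a block, 5 genes of this list were higher and 0 lower, so that none of the falls passed. Over all genes tested, 27.3% were higher and 25.6% lower.

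Of 25 gastric and classical subtype markers 21 were tested, and 13 were lower and 3 higher, with a median log2 fold change of -0.83. Over all genes tested 25.6% were lower. The epithelial markers, of which 5 of 7 were lower, moved with this list, and their part in it was not tested. Cdh17, an intestinal cadherin, averaged 19134 ± 9313 normalized counts (SD, n = 4 lines) with DMSO. With trametinib the average was 1326 ± 691 (SD, n = 4 lines), and the log2 fold change was -3.95 (SE 0.16, limma adjusted p = 7.8e-05). Tspan1, a tetraspanin, and Anxa10, an annexin of the gastric epithelium, fell by 3.19 (limma adjusted p = 0.00049) and 2.72 (limma adjusted p = 0.00054) on the log2 scale. Cym, a gastric protease of the young animal, rose by 5.10 (limma adjusted p = 0.00016), Ceacam20 by 1.25 (limma adjusted p = 0.011) and the transcription factor Onecut2 by 0.66 (limma adjusted p = 0.0062). Cym averaged 9.70 with DMSO and 381 with trametinib, so that it passed the filter only through the trametinib libraries. The count of lower genes in this list was 8 without line #3, 8 without line #5 and 5 without the cell line as a block.

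Of 26 antimicrobial and acute-phase proteins 10 were tested, and 4 were higher and 1 lower, with a median log2 fold change of 1.05. Hp, which passed as higher, averaged 2.76 with DMSO and 19.7 with trametinib, and Orm1, which did not pass, 1.42 and 29.4. Both reached the filter only through the trametinib libraries, and both enter this median. Over all genes tested, 53.0% passed in either direction, 27.3% as higher and 25.6% as lower. Cp, the copper-carrying ferroxidase ceruloplasmin, averaged 337 ± 219 normalized counts (SD, n = 4 lines) with DMSO. With trametinib the average was 11152 ± 2308 (SD, n = 4 lines), and the log2 fold change was 5.28 (SE 0.34, limma adjusted p = 0.00020). Lbp, which binds lipopolysaccharide, and the complement component C3 rose by 3.11 (limma adjusted p = 0.00020) and 2.68 (limma adjusted p = 0.0014) on the log2 scale. Lgals3, a galectin that binds mucin sugars, fell by 0.90 (limma adjusted p = 0.012). Without line #3 the lower genes in this list numbered 3, and without the cell line as a block they numbered 0.

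For Spp1 and Lcn2, 20 receptors, relatives and partners were listed and 12 tested, of which 7 were higher and 2 lower, with a median log2 fold change of 0.60. Of all genes tested, 53.0% passed in either direction. On the log2 scale the integrin subunit Itgb8 rose by 4.10 (limma adjusted p = 0.0064). Itgb8 was listed at 0 in line #3 with DMSO. Its mean with DMSO lay below 10, so that it passed the filter only through the trametinib libraries, and it enters this median. The integrin subunits Itgb6 and Itga4 rose by 2.64 (limma adjusted p = 8.1e-05) and 1.17 (limma adjusted p = 0.0061). Cd44, the other receptor of osteopontin, fell by 1.32 (limma adjusted p = 0.0016). Nfkbiz, an inducible partner of NF-κB at the Lcn2 gene, fell by 0.71 (limma adjusted p = 0.0033). With no block on the cell line, 6 genes of this list were higher and 1 lower. Among 12 partners and sheddases of membrane mucins 11 were tested, 6 were higher and 1 lower, with a median log2 fold change of 0.33. Mmp14, a membrane protease that sheds Muc1, rose by 2.09 (limma adjusted p = 0.00095), Egfr by 1.07 (limma adjusted p = 0.00053) and the sheddase Adam10 by 0.88 (limma adjusted p = 0.0070), and the lower gene was Lgals3. Without line #10, 2 genes of this list were lower, and without the cell line as a block 3 were higher and 0 lower. Over all genes tested, 27.3% were higher and 25.6% lower.

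Over the 7 lists, without the MAPK readouts and with each gene counted once, 105 genes were tested, of which 35 were higher and 31 lower, with a median log2 fold change of 0.09. This is 62.9% called, beside the 53.0% of all genes tested. The lists were described by counts and medians only.

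**Figure D4:**
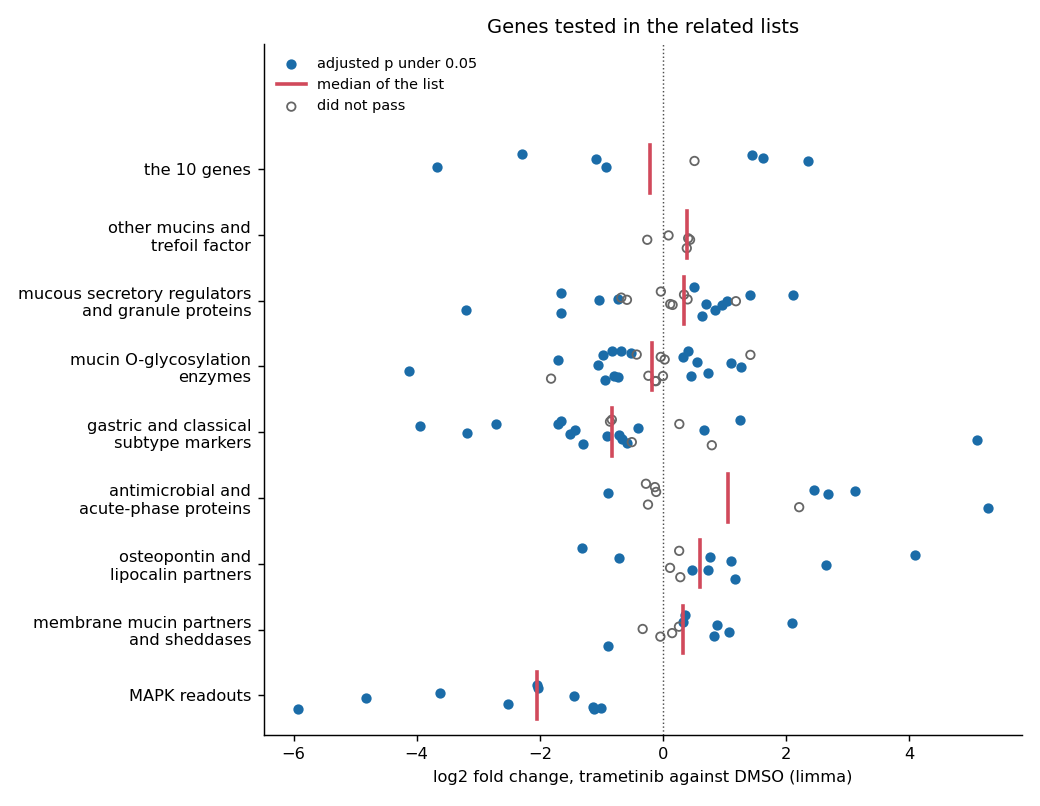
Log2 fold change, trametinib against DMSO, of each tested gene in the related lists. Filled points passed an adjusted p of 0.05 in limma, open points did not, the vertical spread within a row is only for legibility, and the red bar is the median of the list. The median is lowest for the MAPK readouts at -2.04 and for the gastric and classical subtype markers at -0.83, and highest for the antimicrobial and acute-phase proteins at 1.05. In the latter list Hp and Orm1 reached the filter only through the trametinib libraries.

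For each tested member, the genes whose pattern over the 8 libraries was most like its own were found by Pearson's r of log2(normalized count + 1) among genes with a mean of at least 50. They were Gatm (0.97) and Bace2 (0.96) for Muc1, Klhl1 (0.97) and Tma16 (0.96) for Muc5ac, and Cyb561 and Cryl1 (both 0.96) for Muc4. For Muc13 they were Gm20683 and Gk5 (both 0.96). The nearest to Tff1 was Vapb (0.99), and to Tff2 St6galnac4 (0.96), a sialyltransferase of O-linked chains, and Snx2 (0.95). For Lcn2 they were Osmr (0.97), the receptor of oncostatin M, and Mageh1 (0.96), and for Spp1 Pomgnt1 (0.96). Each was the highest or next highest of 12423 or 12424 genes, and the 8 libraries share 4 lines and 2 treatments, so that these values describe the libraries only.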

How the data were processed

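Stranded mRNA libraries (TruSeq, 2 x 100 bases) of 8 samples were used. The authors deposited a table of 34478 symbols with normalized counts, a signal put on 1 scale over the libraries. The submitters' processing notes name CASAVA 2.17, Salmon 0.12, DESeq2 1.18 and the build mm10, and their roles are not given in the sources used here. Of values below 20 steps, 55.2% to 68.04% were within 0.05 reads of a whole multiple of the step that 1 read is worth, so whole reads were not recovered, no count model was used and read numbers are approximate. Of 6656 genes whose mean is 1000 or more, 4 are listed at 0 in 1 or more libraries, so a 0 is given as listed at 0. Precision at low levels is given by the floor of 3 reads.

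Values were transformed as log2(value + 1) and fitted with limma 3.58.1 in R 4.3.3 (lmFit, eBayes with trend) for genes whose mean was 10 or more, blocking on cell line, with two-sided p-values adjusted after Benjamini and Hochberg and a threshold of 0.05. The mean is that over all 8 libraries, so that a gene below 10 in 1 group can enter through the other. Examples are Chst4 (mean 6.89 with trametinib), Tspan1 (9.98) and Tm4sf5 (7.58), which passed as lower and entered through the DMSO libraries. Lcn2, Cym, Itgb8 and Hp, which passed as higher, entered through the trametinib libraries. The numbers in the labels name the same line in both groups, and the deviations of the 2 libraries of a line from their group means correlated at 0.66 on average (0.63 to 0.72) across genes. The fit was tested on simulated data. Python 3.11.15 (pandas 2.3.3, numpy 2.4.6, matplotlib 3.10.9, scipy 1.17.1) served for tables and plots. Gene positions, exon lengths and overlaps are those of GENCODE M21 on GRCm38.

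The members and lists were chosen with earlier results of these data known. Named are the 10 members, Dusp6 and Spry4, up to 3 genes with the largest rise and 3 with the largest fall in each related list among those that passed with 1 direction in all 4 lines, and the 2 genes most like each tested member. A further allele of the mice and 2 of these similar genes are not reported here. For the MAPK readouts only Dusp6 and Spry4 are given with values. Other named genes were chosen after their values were seen. The alternatives were pseudocounts of 0.1 and 5, a mean filter of 50 or none, equal totals, quantile normalization, median centring, no block, eBayes without trend or with robust estimation, and each line left out. The spread of Muc5ac without line #1 and the log2 scale for libraries that stand apart were added after seeing the data.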

Additional observations from a re-analysis of the deposited data

Results flagged for a closer look

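In 18 sets of 4 libraries (the levels of a gene in 1 treatment), 8 held a library that stood far from the other 3 in normalized counts. Chance flags about 1 set in 20, or 0.90, for independent sets of normally distributed values, which these are not. On the log2(normalized count + 1) scale, tried after seeing the data, 1 of the 18 remained, that of Spp1 with DMSO, so that the count depends on the scale. The 10 sets of log2 fold changes per line held none. In line #1 with DMSO, Muc5ac stood at 1344 against 107 to 263 in the other lines, and Spp1 at 118850 against 33686 to 37507. In line #3 with DMSO, Muc4 stood at 66.7 against 15.5 to 21.6, Muc13 at 47.9 against 2.33 to 4.97, and Agr2 at 16.4 against 1.24 or lower. In line #10, Tff1 stood at 6092 with DMSO against 577 to 1281, and at 3065 with trametinib against 53.0 to 272, and Tff2 at 315 with trametinib against 27.0 to 56.5. Each of these 8 thus fell on lines #1, #3 or #10 and none on line #5.

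Muc13 moved against the other lines in line #3, where its log2 fold change was -1.61, against 0.83 to 1.80 in lines #1, #5 and #10. This difference was not tested, since each line has 1 library per treatment.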

How the results depend on the processing

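In none of the 96 refits of the 7 members that passed did the direction change, and 75 kept the call. Muc5ac kept it in 14 of 14 alternatives (adjusted p 0.00084 to 0.0075 in limma). Muc1, Tff1 and Spp1 kept it in 13 of 14 each and lost it only with no replicate block. Muc4 kept it in 8 of 14 (adjusted p 0.021 to 0.15), Tff2 in 9 of 14 (0.0094 to 0.17) and Lcn2 in 5 of 12 (0.015 to 0.083). The count of members that rose, 3 in the fit reported, was 0 with quantile normalization (2 at an unadjusted p under 0.05 in limma), 0 with no replicate block (1 unadjusted), 1 with eBayes without trend and between 0 and 2 with a line left out. The 0 came without line #1 (2 unadjusted), and the count was 1 without line #3 and 1 without line #10. The count of members that fell, 4, was 1 with no replicate block and 4 with each line left out. The related lists went from 35 higher and 31 lower to 23 and 13 with no replicate block, and ranged from 30 to 34 higher and 26 to 28 lower with a line left out. Muc13 did not pass in any of 12 alternatives (adjusted p 0.41 to 0.98). With the filter at 50 neither Lcn2 nor Muc13 could be fitted, and neither could Lcn2 without line #5 or Muc13 without line #3. Over all genes, 4341 were higher and 4075 lower, and 2205 and 2347 with no replicate block. Depth limits Muc20, Agr2 and the DMSO levels of Lcn2 and Muc13, which rest on few reads. The cause of these changes was not tested.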

Other observations

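Genes around the trefoil factors on chromosome 17 were looked at as values. Abcg1, a cholesterol exporter, stood in line #10 at 41.3 (DMSO) and 42.07 (trametinib) and at 7.44 or lower in the other lines, the same line that was highest for Tff1, Tff2 and Tff3. Glp1r, the receptor of glucagon-like peptide 1, stood at 0.96 and 11.5 in line #10 and was listed at 0 in the other 6 libraries. Slc37a1, on the far side of Tff1, lay between 312 and 1122 in all 8 libraries and was lowest with DMSO in line #10. These genes were chosen after their values were seen.

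Among the regulators of mucous secretory cells, the transcription factor Hnf4a fell by 0.73 (limma adjusted p = 0.0070) on the log2 scale. None of 4 further factors of this list passed, with log2 fold changes of 0.34 for Foxa1 (limma adjusted p = 0.26), 0.16 for Foxa2 (limma adjusted p = 0.22), -0.68 for Foxa3 (limma adjusted p = 0.066) and -0.58 for Klf4 (limma adjusted p = 0.080), and Gfi1 was at 4.86 or lower and not tested. Msln, the surface protein that binds Muc16, rose by 0.84 (limma adjusted p = 0.0033), and Muc16 itself was at 3.48 or lower in each library. Among tight junction genes of the epithelial markers, Cldn4 rose by 4.61 (limma adjusted p = 0.0010) and Cldn7 fell by 1.96 (limma adjusted p = 0.0011), and Krt7, Krt8, Krt18 and Krt19 fell by 0.66 to 0.97.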
